A study of Homo sapiens with 36 samples.

Results

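NB4 cells given all-trans retinoic acid (ATRA) together with atorvastatin were compared with untreated NB4 cells after 48 h, across all genes that could be named on the array. The comparison takes 3 arrays of both agents and 3 control arrays, 6 of the 36 arrays of the series, chosen by the treatment and time in their titles. NB4 cells descend from a human acute promyelocytic leukaemia with the PML-RARA fusion, and as 1 line they stand for 1 genetic background. Cells of the combination group received ATRA 1 h before atorvastatin, and control cells received neither agent. Cells given ATRA alone and cells given atorvastatin alone, 3 arrays each at 48 h, served to ask where the combination differed from either agent. All groups grew in the same serum-supplemented medium, and doses and vehicle are not given in the sources used here. Replicate arrays were run, by the series text, in 3 separate experiments, each on its own day.

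ATRA releases the block that PML-RARA places on promyelocytes, which then mature toward granulocytes. In maturing myeloid cells MYC and the ribosome building, nucleotide synthesis and DNA replication that accompany growth are known to wind down, while lysosomes, receptors for chemoattractants and an actin skeleton suited to crawling are built up. Statins lower the supply of mevalonate, from which cells make cholesterol and the lipid chains that anchor many signalling proteins to membranes.

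Signals are normalized log2 intensities, on which the 50th percentile of all probes at 48 h is 6.34 and the 90th is 8.59. A gene near 6.34 was close to background, where changes are compressed and a low level cannot be told from absence. Changes are log2 differences ± SE from limma, both agents minus the other group, with n = 3 arrays per group, and a gene is said to have risen or fallen only where its adjusted p was under 0.05. Members of a list that did not pass are named mostly because their signal was the brightest among those, so that they did not pass is part of how they were chosen. The small number of arrays limits the precision of every value. In bulk RNA fewer cells of a type and less RNA per cell cannot be told apart.

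The 4 genes that mark the response were read first. G0S2, which encodes an inhibitor of the main triglyceride lipase, had signals of 12.87, 13.09 and 12.23 with both agents, against 7.21, 6.79 and 6.75 in control, a rise of 5.81 ± 0.19 (limma, adjusted p = 1.63e-12). IL1B, the interleukin-1 beta gene of activated phagocytes, had 11.14, 10.83 and 11.06 with both agents, against 6.35, 6.36 and 6.40 in control, and it rose by 4.64 ± 0.16 (adjusted p = 1.77e-12). Control arrays were close to background for IL1B, and for both genes every combination array lay far above every control array. ITGAM, the CD11b integrin chain used to follow myeloid maturation, stood at 10.83, 10.58 and 10.22 with both agents, against 6.82, 6.26 and 6.76 in control, and rose by 3.93 ± 0.19 (adjusted p = 1.89e-10). MYC, the transcription factor of growth genes, had 10.38, 10.48 and 10.58 with both agents, against 12.80, 13.26 and 12.93 in control, a change of -2.51 ± 0.20 (adjusted p = 1.33e-07). Its combination arrays all lay below the control arrays.

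Of 15308 genes tested 2572 passed the threshold (16.8%), 1224 higher (8.00%) and 1348 lower (8.81%), and the median change over all genes was -0.01. The arrays of the groups did not overlap in 4566 genes (29.8%). Large changes were mostly rises: 474 genes (3.10%) rose by at least 1 log2 unit and 277 (1.81%) fell by as much, and at 2 units the numbers were 140 and 21. Without the second experiment 1421 genes passed. The split by direction depended on how arrays were scaled: median scaling in place of quantile normalization shifted the median gene by 0.14 and called 2665 genes, 85.9% of them higher against 47.6% here, and the authors' own log2 values called 2617 with 58.9% higher. The raw median signal was 107.4, 85.9 and 78.5 with both agents, against 170.6, 94.8 and 81.0 in control, so the first control array was the brightest of the 6. Its part in the results was not tested beyond leaving it out, which called 2186 genes. Lists were counted again under median scaling, in the authors' values and without an array or experiment. These counts against control are given where they moved by over 1.5 times. List counts against control are to be read against the shares of all genes, 8.00% higher and 8.81% lower. These shares hold for the main fit only. Over all genes 2289 rose and 376 fell with median scaling, and 1541 and 1076 in the authors' values. Without the first experiment 811 rose and 905 fell, and without the second 772 and 649. Calls in both directions do not by themselves set a list apart from all genes.

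**Figure D1:**
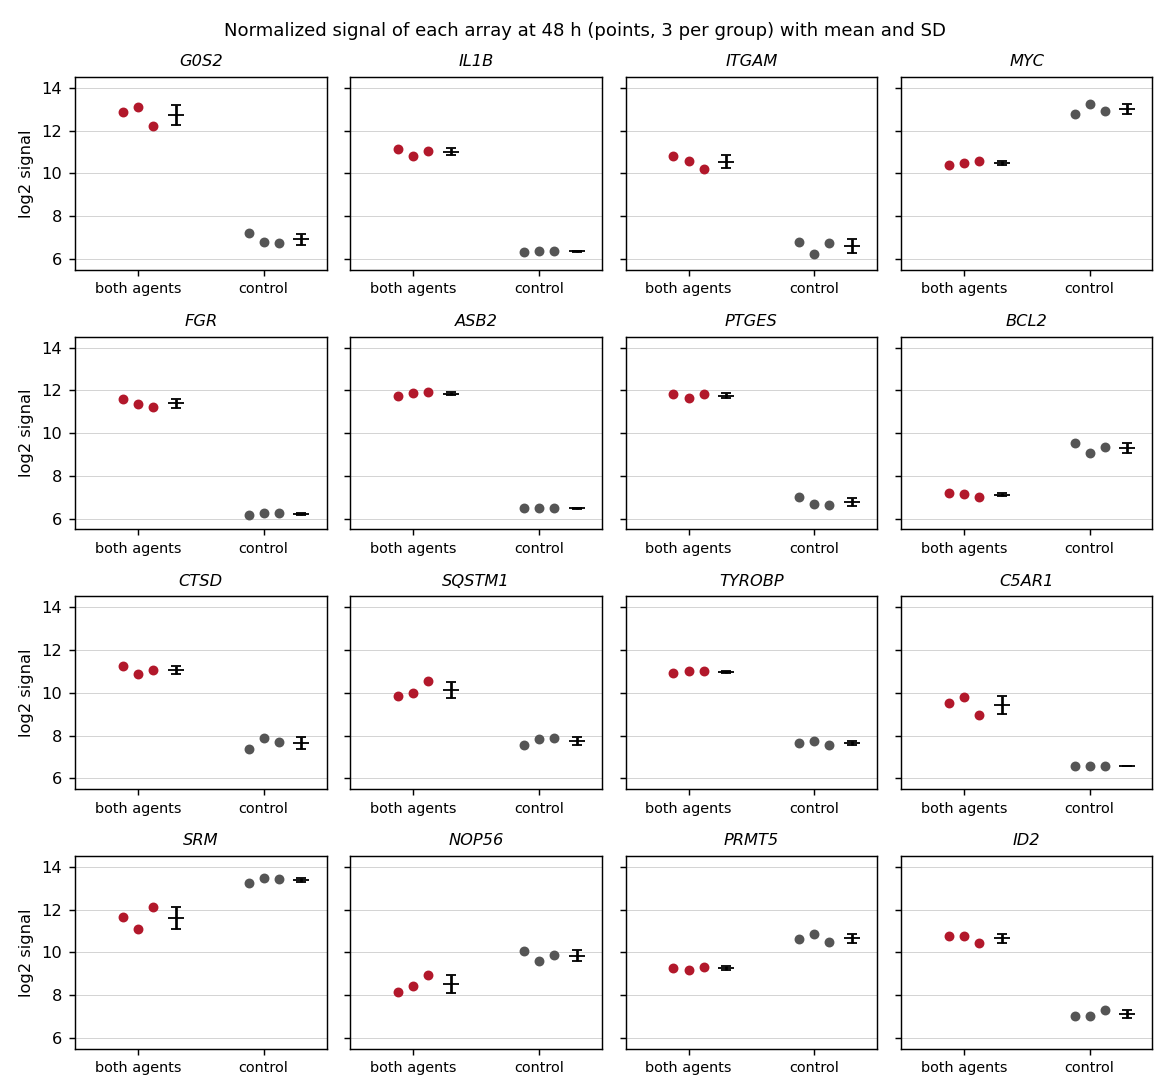
Normalized log2 signal (vertical axis) of each array at 48 h for 16 genes, with both agents at the left and control at the right of each panel; points are the 3 arrays of a group and the bar beside them is the mean with its SD. In all 16 panels the arrays of both agents lie apart from those of control, as for CTSD with 11.24, 10.90 and 11.05 with both agents, against 7.36, 7.89 and 7.69 in control. Most of these genes were chosen for large called changes, some with no overlap as a condition, so this separation largely follows from the choice.

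Outside granule and chemokine genes, the genes that rose most had varied functions. ALOX5AP, whose product presents arachidonic acid to the enzyme that makes leukotrienes, had 13.94, 13.94 and 14.82 with both agents, against 6.26, 6.64 and 7.05 in control (7.58 ± 0.26, adjusted p = 1.77e-12). PTGES, which makes prostaglandin E, had 11.81, 11.62 and 11.82 with both agents, against 7.00, 6.69 and 6.66 in control (4.96 ± 0.14, adjusted p = 2.7e-13). Both genes act in eicosanoid synthesis, and in both the control arrays lay near background. FGR, a SRC family kinase of mature phagocytes, had 11.61, 11.35 and 11.21 with both agents, against 6.17, 6.25 and 6.27 in control (5.16 ± 0.15, adjusted p = 2.7e-13). ASB2, the substrate-binding part of a ubiquitin ligase, had 11.75, 11.87 and 11.92 with both agents, against 6.48, 6.49 and 6.52 in control (5.35 ± 0.16, adjusted p = 2.7e-13). The arrays of a group lay close together in FGR and ASB2. THBD, the thrombomodulin receptor that restrains clotting, had 13.28, 13.32 and 12.38 with both agents, against 7.89, 7.72 and 7.89 in control (5.16 ± 0.22, adjusted p = 3.16e-11). LAMB3, a chain of the basement membrane protein laminin, rose by 5.16 ± 0.20, CD52, a small surface antigen of leukocytes, by 5.62 ± 0.18 and LILRA5, an activating receptor, by 4.15 ± 0.17. The other probes of LILRA5, which are dim, gave 0.23 and 1.00. NCF1, a subunit of the phagocyte oxidase whose probe may also read near-identical pseudogenes, was higher by 7.21 ± 0.20.

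Large falls outside granule proteins were likewise found in genes of varied function. BCL11A, a transcriptional repressor of progenitors, had 7.06, 7.07 and 7.07 with both agents, against 9.74, 9.51 and 9.79 in control (-2.62 ± 0.13, adjusted p = 3.79e-10). BCL2, the inhibitor of mitochondrial apoptosis, had 7.18, 7.16 and 7.03 with both agents, against 9.52, 9.08 and 9.34 in control (-2.19 ± 0.15, adjusted p = 2.09e-08). Another, dimmer probe gave -0.53 for BCL11A and -0.11 for BCL2. BCL2A1, a survival gene of the same family, moved the opposite way, with 11.71, 12.54 and 11.87 with both agents, against 6.96, 7.20 and 7.35 in control (4.87 ± 0.22, adjusted p = 8.26e-11). CST7, an inhibitor of lysosomal proteases, changed by -3.37 ± 0.24, CHST13, a chondroitin sulphotransferase, by -3.17 ± 0.18, MS4A7, a membrane protein, by -3.07 ± 0.15 and IGFBP4, which binds insulin-like growth factors, by -2.83 ± 0.16. RGS16, a brake on G protein signalling, had 8.27, 8.38 and 10.12 with both agents, against 10.84, 11.65 and 11.42 in control (-2.38 ± 0.36, adjusted p = 0.000157). In RGS16 the third combination array stood well above the other two but below the control arrays. ASS1, which makes the precursor of arginine, changed by -2.33 ± 0.25, or by -0.16 at another, dimmer probe.

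**Figure D2:**
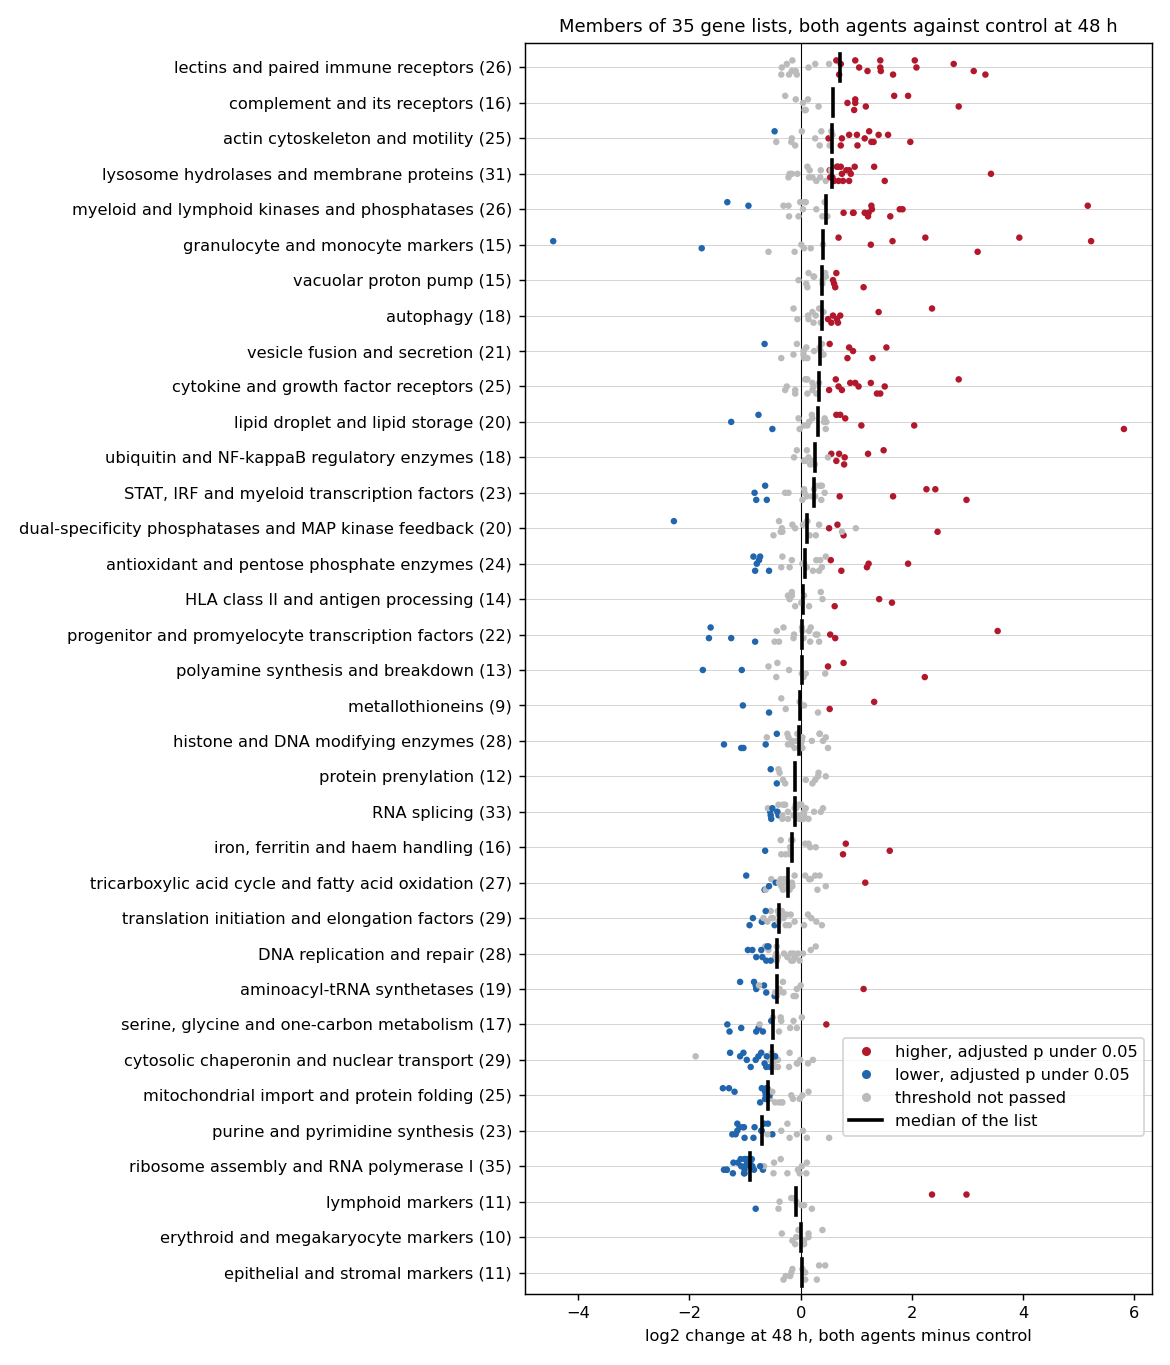
Log2 change at 48 h, both agents minus control (horizontal axis), of each measured member of 35 gene lists (one list per line of points, with its number of measured members); red points were higher and blue points lower with an adjusted p under 0.05, grey points did not pass, and black bars are list medians. Ribosome assembly has the lowest median, -0.91, and lectins and paired receptors the highest, 0.71, while the lists of other cell types at the bottom have medians between -0.08 and 0.03.

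Genes that build ribosomes had the lowest median of the lists. Of 35 measured genes of ribosome assembly and RNA polymerase I, 25 fell and 0 rose, with a median of -0.91 against -0.01 over all genes. LYAR, a nucleolar protein, had 10.07, 9.92 and 9.95 with both agents, against 11.27, 11.59 and 11.23 in control (-1.38 ± 0.16, adjusted p = 8.99e-06). NOP56, part of the particle that methylates ribosomal RNA, had 8.16, 8.43 and 8.97 with both agents, against 10.09, 9.60 and 9.88 in control (-1.33 ± 0.19, adjusted p = 6.38e-05). POLR1B, a large subunit of RNA polymerase I, had 7.66, 7.52 and 7.45 with both agents, against 8.98, 8.96 and 8.68 in control (-1.33 ± 0.15, adjusted p = 5.89e-06). The combination arrays lay below the control arrays in each of these genes. BOP1, needed for the large ribosomal subunit, changed by -1.22 ± 0.19, while NOP58 (-0.66 ± 0.22, adjusted p = 0.0529) and NOP10 (0.11 ± 0.13, adjusted p = 0.688) did not pass. Under median scaling 17 of 35 fell and 0 rose (median -0.52).

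Falls also outnumbered rises among genes of nucleotide and one-carbon metabolism. Of 23 purine and pyrimidine synthesis genes 15 fell and 0 rose (median -0.70), 9 fell without the second experiment, and with median scaling 9 fell and 1 rose. PPAT, which catalyses the committed step of purine synthesis, had 9.01, 8.80 and 9.14 with both agents, against 10.19, 10.46 and 9.81 in control (-1.17 ± 0.18, adjusted p = 0.000207). GMPS, which makes GMP, had 10.16, 10.23 and 10.33 with both agents, against 11.33, 11.39 and 11.42 in control (-1.14 ± 0.12, adjusted p = 2.93e-06). The groups did not overlap in either gene. IMPDH2, the entry to guanine nucleotides, changed by -1.14 ± 0.15 and DHODH, the mitochondrial enzyme of pyrimidine synthesis, by -1.23 ± 0.21. TYMS, thymidylate synthase, at -0.07 ± 0.19 and RRM1, a ribonucleotide reductase subunit, at -0.24 ± 0.15 did not pass. In serine, glycine and one-carbon metabolism 7 of 17 fell and 1 rose (median -0.50), or 3 and 1 with median scaling, and 0 rose without the first or the third combination array, the second or the third control array or any 1 experiment. PHGDH, the first enzyme of serine synthesis, had 10.98, 11.01 and 10.91 with both agents, against 12.36, 12.65 and 11.72 in control (-1.28 ± 0.20, adjusted p = 0.000198). PSAT1, the next enzyme, changed by -1.07 ± 0.20 and MTHFD1L, a mitochondrial folate enzyme, by -1.32 ± 0.22.

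Polyamine genes had calls in both directions. SRM, spermidine synthase, had 11.65, 11.09 and 12.11 with both agents, against 13.26, 13.46 and 13.42 in control (-1.76 ± 0.24, adjusted p = 5.68e-05). ODC1, which starts polyamine synthesis, had 10.64, 10.42 and 10.66 with both agents, against 11.60, 11.81 and 11.49 in control (-1.06 ± 0.15, adjusted p = 5.89e-05). SMOX, which oxidizes spermine, had 9.07, 8.78 and 9.85 with both agents, against 6.90, 7.25 and 6.86 in control (2.23 ± 0.21, adjusted p = 7.9e-07). SRM and ODC1 lay below control and SMOX above it on every array, although another, dimmer probe of SMOX gave 0.37. SAT1, which acetylates polyamines for breakdown and export, rose by 0.77 ± 0.18 (adjusted p = 0.00634), a call lost without the second experiment. SMS, spermine synthase, did not pass (0.02 ± 0.19, adjusted p = 0.971). Of 13 measured genes 3 rose and 2 fell (median 0.02, or -0.13 in the authors' values), 1 rose without the second experiment, and with median scaling 5 rose and 2 fell.

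In the lists of protein folding and transport every call was a fall, and the counts depended on the scaling and on single arrays. So did the falls over all genes, 1348 in the main fit. They were 988 without the second control array, 649 without the second experiment and 376 with median scaling. Of 29 genes of the cytosolic chaperonin and nuclear transport 15 fell and 0 rose (median -0.52), 9 without the second control array, 7 without the second experiment and 4 with median scaling. RCC1, which loads the transport GTPase RAN, had 9.07, 8.71 and 9.13 with both agents, against 10.14, 10.29 and 10.30 in control (-1.27 ± 0.18, adjusted p = 6.98e-05). CSE1L, the exporter of importin alpha, changed by -0.97 ± 0.16, a call that median scaling ended, while KPNB1, importin beta, did not pass (0.22 ± 0.17, adjusted p = 0.488). Of 25 genes of mitochondrial import and folding 14 fell and 0 rose (median -0.59), 8 without the first or the second array of either group, 7 without the first experiment, 5 without the second and 3 with median scaling. TRAP1, a mitochondrial chaperone of the HSP90 family, had 8.76, 8.52 and 9.09 with both agents, against 10.16, 10.24 and 10.15 in control (-1.40 ± 0.17, adjusted p = 1.45e-05). TOMM20, an import receptor of the outer membrane, changed by -1.29 ± 0.15 and TIMM9, a carrier of the space between the membranes, by -1.19 ± 0.17. The mitochondrial chaperone genes HSPD1 and HSPA9 did not pass, at -0.14 ± 0.18 and -0.33 ± 0.18.

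Among 19 aminoacyl-tRNA synthetases 7 fell and 1 rose (median -0.43), or 1 and 1 with median scaling. The 1 that rose was WARS1, the tryptophan enzyme and an interferon-induced gene, with 11.89, 11.72 and 12.22 with both agents, against 10.86, 10.96 and 10.61 in control (1.13 ± 0.18, adjusted p = 0.000223). FARSA, a subunit of the phenylalanine enzyme, had 9.92, 9.77 and 10.28 with both agents, against 11.04, 11.14 and 11.04 in control (-1.09 ± 0.17, adjusted p = 0.000207). The groups did not overlap in either gene. Of 29 translation initiation and elongation factors 6 fell and 0 rose (median -0.39), 3 without the second experiment, but with median scaling 0 fell and 2 rose. EIF4B, a helper of the initiation helicase, changed by -0.92 ± 0.18, a call that median scaling ended, while EEF1A1, the bulk elongation factor, did not pass (-0.21 ± 0.13, adjusted p = 0.341). In 33 splicing genes 6 fell and 0 rose (median -0.11, or 0.28 with median scaling, which called 0 lower and 1 higher). That count was 0 without the first or the second combination array or the second experiment, 1 without the first experiment, 2 without the first control array and 3 without the second or the third. In the authors' values and without the second combination array 1 splicing gene rose.

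Of 28 DNA replication and repair genes 9 fell and 0 rose (median -0.43), 4 without the second combination array, 5 without the second or the third control array, 3 without the second experiment, and 1 fell and 1 rose with median scaling. MCM6, a subunit of the replicative helicase, had 7.71, 7.79 and 7.56 with both agents, against 8.79, 8.50 and 8.38 in control (-0.87 ± 0.15, adjusted p = 0.000442). MCM3 and MCM2, other subunits of the helicase, did not pass, at -0.43 ± 0.17 and -0.64 ± 0.28. CDKN1A, the p21 inhibitor of cyclin-dependent kinases, had 9.43, 9.56 and 9.90 with both agents, against 7.15, 7.14 and 7.46 in control (2.38 ± 0.22, adjusted p = 6.24e-07), with -0.15 at another, dimmer probe. Among 28 histone and DNA modifying enzymes 5 fell and 0 rose (median -0.03), 3 without the second combination array or without the first or the second experiment, while 3 rose without the second combination array or in the authors' values and 2 without the second experiment, and with median scaling 3 fell and 5 rose (median 0.23). PRMT5, which methylates arginines of histones and splicing proteins, had 9.29, 9.19 and 9.34 with both agents, against 10.61, 10.87 and 10.49 in control (-1.38 ± 0.13, adjusted p = 8.48e-07). PRMT1, the main enzyme of another arginine mark, changed by -1.07 ± 0.16 and the histone demethylase gene KDM1A by -1.03 ± 0.15, whereas HDAC1, a histone deacetylase, did not pass (0.40 ± 0.21).

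MYC and its partner MAX bind the E-box, the sequence CACGTG, and the lysosomal regulator TFEB binds a longer element around the same letters. Promoter windows from RefSeq (build GRCh38.p14, 250 bases before to 50 bases after the gene's start) were searched for CACGTG, which reads the same on both strands. Of 12426 tested genes with a window 9.09% held the motif, against 15.4% of the 1128 that fell, 7.94% of the 995 that rose and 8.51% of the other 10303. It was held by 8 of 29 ribosome assembly genes and 4 of 21 purine and pyrimidine genes. Among mitochondrial import genes 7 of 23 held it, and among lysosome genes 7 of 22. Other lists varied, with 1 of 28 splicing genes, 1 of 16 aminoacyl-tRNA synthetases, 1 of 17 autophagy genes and 3 of 10 proton pump genes. Of the 8 ribosome genes 4 fell and 4 did not pass, and of the 7 lysosome genes 4 rose and 3 did not pass. A match describes the sequence and shows no binding. The windows of 5 genes are printed because each has the largest called change of its list among the members with the motif, a choice made after their values were seen. UTP4 (chr16:69132399-69132698, plus strand), a ribosome assembly factor, changed by -1.07 ± 0.16 (adjusted p = 0.000102). DHODH (chr16:72008494-72008793, plus strand), SRM (chr1:11059969-11060268, minus strand) and TOMM20 (chr1:235128788-235129087, minus strand) fell as given above, and CTSD (chr11:1763878-1764177, minus strand) rose. Capitals mark the motif, whose first base stands at -16 from the start in UTP4, -159 in DHODH, -199 in SRM, -168 in TOMM20 and -47 in CTSD.
UTP4: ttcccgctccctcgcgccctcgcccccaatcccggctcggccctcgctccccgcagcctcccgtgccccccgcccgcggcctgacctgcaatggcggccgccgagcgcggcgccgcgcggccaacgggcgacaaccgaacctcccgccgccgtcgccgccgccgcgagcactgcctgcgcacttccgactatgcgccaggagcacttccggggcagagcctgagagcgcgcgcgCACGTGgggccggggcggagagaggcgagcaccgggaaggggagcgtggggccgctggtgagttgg
DHODH: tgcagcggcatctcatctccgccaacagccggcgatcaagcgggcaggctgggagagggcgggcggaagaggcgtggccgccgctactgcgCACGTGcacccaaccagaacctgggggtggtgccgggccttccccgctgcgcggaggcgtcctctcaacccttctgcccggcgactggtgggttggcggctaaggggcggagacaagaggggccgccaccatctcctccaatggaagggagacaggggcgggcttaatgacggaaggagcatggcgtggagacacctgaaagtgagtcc
SRM: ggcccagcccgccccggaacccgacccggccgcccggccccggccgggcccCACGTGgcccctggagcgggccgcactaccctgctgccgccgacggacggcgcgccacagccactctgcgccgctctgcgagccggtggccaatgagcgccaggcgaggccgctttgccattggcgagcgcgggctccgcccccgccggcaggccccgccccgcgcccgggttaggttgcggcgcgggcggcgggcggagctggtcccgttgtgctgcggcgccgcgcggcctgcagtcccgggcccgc
TOMM20: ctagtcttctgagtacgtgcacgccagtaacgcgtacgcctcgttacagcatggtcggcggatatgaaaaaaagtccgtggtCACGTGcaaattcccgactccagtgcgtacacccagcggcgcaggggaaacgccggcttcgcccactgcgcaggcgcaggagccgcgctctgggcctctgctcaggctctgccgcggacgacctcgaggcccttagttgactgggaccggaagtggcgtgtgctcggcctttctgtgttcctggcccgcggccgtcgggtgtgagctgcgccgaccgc
CTSD: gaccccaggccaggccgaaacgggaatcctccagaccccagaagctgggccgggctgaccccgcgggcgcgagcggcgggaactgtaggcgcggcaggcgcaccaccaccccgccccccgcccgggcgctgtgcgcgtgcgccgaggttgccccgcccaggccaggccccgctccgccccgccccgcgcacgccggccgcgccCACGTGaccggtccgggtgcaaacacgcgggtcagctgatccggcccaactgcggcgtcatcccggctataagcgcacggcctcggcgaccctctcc

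In lysosome genes every call was a rise. Of 31 measured hydrolases and lysosomal membrane proteins 18 rose and 0 fell (median 0.57), 11 without the first experiment and 24 with median scaling. CTSD, the aspartic protease cathepsin D whose promoter is printed above, had 11.24, 10.90 and 11.05 with both agents, against 7.36, 7.89 and 7.69 in control (3.42 ± 0.16, adjusted p = 1.19e-10). CTSZ, a lysosomal carboxypeptidase, had 11.27, 10.81 and 10.83 with both agents, against 9.58, 9.71 and 9.08 in control (1.51 ± 0.18, adjusted p = 1.27e-05). The groups did not overlap in either gene. CTSS, a protease of antigen processing, rose by 1.32 ± 0.14 and GRN, the progranulin gene, by 0.97 ± 0.18, while LAMP1, a major membrane protein of the lysosome, did not pass (-0.20 ± 0.22, adjusted p = 0.654). Of 15 subunits of the proton pump that acidifies lysosomes 5 rose and 0 fell (median 0.39), 2 without the first or without the second experiment and 11 with median scaling. The pump subunit gene ATP6V0D1 rose by 1.13 ± 0.20.

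Of 18 autophagy genes 8 rose and 0 fell (median 0.39), 5 without the third combination array, the second control array or the third experiment, 3 without the first experiment and 12 with median scaling. SQSTM1, the p62 cargo receptor, had 9.83, 10.01 and 10.53 with both agents, against 7.54, 7.84 and 7.89 in control (2.36 ± 0.20, adjusted p = 2.69e-07). MAP1LC3B, an LC3 protein of autophagosome membranes, had 10.26, 10.08 and 10.14 with both agents, against 8.57, 8.81 and 8.93 in control (1.40 ± 0.16, adjusted p = 9.03e-06). Both were higher on every combination array than on any control array. TFEB, the regulator of lysosome genes, rose by 0.67 ± 0.15 with control arrays near background, a call lost without the first experiment. ATG3, which joins LC3 to lipid, did not pass (0.21 ± 0.17, adjusted p = 0.493).

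Rises also outnumbered falls among genes of cell shape and movement. In the actin list 13 of 25 rose and 1 fell (median 0.57), or 16 and 0 with median scaling, and 0 fell without the second or the third array of either group or the second or the third experiment. MYO1F, a myosin of immune cells, had 10.60, 10.15 and 10.63 with both agents, against 8.54, 8.39 and 8.54 in control (1.97 ± 0.17, adjusted p = 2.38e-07). LSP1, an actin-binding leukocyte protein, rose by 1.57 ± 0.16, PLEK, pleckstrin, by 1.40 ± 0.20 and VASP, which promotes filament growth, by 1.31 ± 0.15. ACTB, the bulk actin gene (0.34 ± 0.14), and PFN1, profilin (0.26 ± 0.15), did not pass. Of 12 genes that attach and process lipid chains on membrane proteins 0 rose and 2 fell (median -0.09), FNTB by -0.54 ± 0.16 and ICMT by -0.43 ± 0.14, but with median scaling 3 rose and 0 fell (median 0.17). That count was 1 without the first or the third combination array or the first control array, and 0 without any of the other 3 arrays or any 1 experiment. In the authors' values 1 rose and 1 fell, and 1 rose without the third experiment.

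Receptors on the cell surface gave the list with the highest median. Of 26 lectins and paired immune receptors 15 rose and 0 fell (median 0.71), and 1 fell without the third combination array. TYROBP, the DAP12 adaptor through which many activating receptors signal, had 10.94, 11.02 and 11.01 with both agents, against 7.67, 7.77 and 7.56 in control (3.32 ± 0.13, adjusted p = 1.39e-11). SIRPA, the receptor of CD47, had 12.81, 12.71 and 12.75 with both agents, against 10.91, 10.57 and 10.56 in control (2.08 ± 0.16, adjusted p = 6.28e-08). Activating and inhibitory members both rose, CD300C by 3.11 ± 0.20 and the inhibitory lectin gene SIGLEC10 by 2.75 ± 0.18. Of 25 cytokine and growth factor receptor genes 12 rose and 0 fell (median 0.33). TNFRSF1B, the second receptor of tumour necrosis factor, had 8.92, 9.24 and 9.18 with both agents, against 6.23, 6.26 and 6.34 in control (2.84 ± 0.19, adjusted p = 9.49e-09). The first receptor, TNFRSF1A, did not pass (0.33 ± 0.17, adjusted p = 0.257). IFNGR1 and IL10RB, chains of the interferon gamma and interleukin-10 receptors, rose by 1.51 ± 0.17 and 1.43 ± 0.18, and the macrophage growth factor receptor gene CSF1R by 1.37 ± 0.17.

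Of 16 complement genes 8 rose and 0 fell (median 0.58). C5AR1, the receptor of the chemoattractant C5a, had 9.52, 9.79 and 8.96 with both agents, against 6.57, 6.60 and 6.59 in control (2.84 ± 0.25, adjusted p = 3.37e-07). C3, the central complement protein, had 8.60, 8.44 and 9.09 with both agents, against 7.28, 6.35 and 6.73 in control (1.93 ± 0.21, adjusted p = 5.19e-06). Control arrays were close to background for C5AR1. ITGB2, the CD18 chain that pairs with CD11b, rose by 1.68 ± 0.16 and CFD, complement factor D, by 1.17 ± 0.17, while CD59, which protects cells from complement, did not pass (-0.28 ± 0.15). Of 14 HLA class II and antigen processing genes 3 rose and 0 fell (median 0.04), or 5 and 0 with median scaling. CD86, a T cell costimulator, had 7.63, 7.56 and 7.61 with both agents, against 6.04, 6.29 and 6.24 in control (1.41 ± 0.14, adjusted p = 1.94e-06). The probe used for CD86 is dim, and its other probes, of nearly the same mean signal, gave 0.85 and 0.15. IFI30, a lysosomal reductase of antigen processing, rose by 1.64 ± 0.17. CD74, the class II chaperone, rose by 0.61 ± 0.17 (adjusted p = 0.0184), a call lost without the third combination array or without the second or the third control array.

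Signalling enzymes changed in both directions. Of 26 kinases and phosphatases of myeloid and lymphoid cells 12 rose and 2 fell (median 0.45), or 1 fell without the second experiment. Besides FGR, PIK3CG, the lipid kinase that acts below chemoattractant receptors, had 11.04, 11.29 and 11.57 with both agents, against 9.25, 9.34 and 9.81 in control (1.83 ± 0.19, adjusted p = 1.85e-06). INPP5D, the SHIP1 phosphatase that removes the product of such kinases, had 10.07, 9.79 and 10.62 with both agents, against 11.57, 11.51 and 11.37 in control (-1.32 ± 0.18, adjusted p = 4.11e-05). The kinase thus lay above control and the phosphatase below it on every array. PTPRC, the CD45 phosphatase, rose by 1.78 ± 0.16, with 0.01 and 0.04 at dim probes. PTPN22, another phosphatase, rose by 1.61 ± 0.18, with 0.71 and 0 at dimmer probes, whereas the kinase gene SYK did not pass (0.07 ± 0.18). Among 20 dual-specificity phosphatases and MAP kinase genes 4 rose and 1 fell (median 0.12), 2 rose without the first combination array, the second control array or the first experiment, and 8 rose with median scaling. There 2 fell without the second combination array, the first control array or the first experiment. DUSP5, a nuclear phosphatase of ERK, had 9.53, 9.93 and 10.02 with both agents, against 7.36, 7.33 and 7.40 in control (2.46 ± 0.24, adjusted p = 1.4e-06). DUSP3, a phosphatase of ERK and JNK, had 6.94, 7.19 and 7.04 with both agents, against 9.44, 9.29 and 9.28 in control (-2.28 ± 0.16, adjusted p = 1.64e-08). Members of 1 enzyme family lay on either side of control. Of 18 ubiquitin and NF-kappaB regulatory genes 7 rose and 0 fell (median 0.25), 4 without the first combination array, 2 without the second, 3 without the first control array, 2 without the first experiment and 3 without the second. TRAF1, an adaptor of tumour necrosis factor receptors, had 7.89, 8.02 and 7.86 with both agents, against 6.53, 6.04 and 6.73 in control (1.49 ± 0.16, adjusted p = 3.23e-06).

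Transcription factors of the myeloid lineage moved in both directions. CEBPE, needed for late granulocyte stages, had 11.36, 11.16 and 11.61 with both agents, against 8.58, 8.58 and 8.50 in control (2.82 ± 0.19, adjusted p = 1.3e-08). ID2, which blocks E proteins, had 10.79, 10.79 and 10.43 with both agents, against 7.01, 7.05 and 7.32 in control (3.54 ± 0.16, adjusted p = 8.26e-11). IRF1, an interferon response factor, had 11.81, 11.99 and 12.65 with both agents, against 8.94, 9.39 and 9.19 in control (2.98 ± 0.19, adjusted p = 9.15e-09). All 3 had every combination array above every control array. SPI1, the PU.1 regulator of myeloid genes, rose by 1.66 ± 0.21, KLF2, a Kruppel-like factor, by 1.75 ± 0.20 and BCL6, a repressor, by 2.26 ± 0.13, with -0.04 at another, dimmer probe of BCL6. WT1, often found in leukaemic blasts, had 7.82, 7.77 and 7.95 with both agents, against 9.47, 9.44 and 9.59 in control (-1.65 ± 0.12, adjusted p = 5.1e-08). MYB, a factor of progenitor growth, had 10.76, 10.39 and 11.06 with both agents, against 12.68, 12.21 and 12.17 in control (-1.62 ± 0.21, adjusted p = 2.44e-05). ETV6, a repressor of the ETS family, changed by -1.25 ± 0.16, while CEBPA (-0.06 ± 0.18) and GFI1 (-0.39 ± 0.16), regulators of granulocyte fate, did not pass. In the list of STAT, IRF and myeloid factors 5 of 23 rose and 4 fell (median 0.24), or 10 and 0 with median scaling and 8 and 1 in the authors' values. Of these 2 fell without the first array of either group, 1 without the second array of either group or the first experiment, and 0 without the second experiment. In the list of progenitor factors 3 of 22 rose (13.6%) and 4 fell (18.2%), against 8.00% and 8.81% of all genes (median 0.02). There 1 rose without the third combination array, the first or the third control array, or the first or the third experiment.

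Genes of lipid storage and of redox metabolism gave mixed lists. In the lipid droplet list 6 of 20 rose and 3 fell (median 0.32), or 10 and 1 with median scaling and 9 and 1 in the authors' values, and 1 fell without the third combination array, the first or the third control array, or the first or the third experiment. GPAT3, which starts triglyceride assembly, had 9.41, 9.31 and 8.36 with both agents, against 6.85, 7.00 and 7.10 in control (2.04 ± 0.23, adjusted p = 6.13e-06). HILPDA, an inhibitor of the same lipase as G0S2, had 7.53, 7.75 and 8.16 with both agents, against 8.91, 9.29 and 9.00 in control (-1.25 ± 0.21, adjusted p = 0.000309). G0S2 and HILPDA thus lay on opposite sides of control. PLIN2, a droplet coat protein, was near background, at 6.40 ± 0.14 with both agents and 6.25 ± 0.05 in control (SD, n = 3). In the antioxidant and pentose phosphate list 5 of 24 rose and 6 fell (median 0.09), or 10 and 0 with median scaling, and 3 rose without the second experiment. PGD, which yields NADPH in the pentose phosphate pathway, had 11.79, 11.53 and 12.01 with both agents, against 9.81, 9.94 and 9.79 in control (1.93 ± 0.15, adjusted p = 9.74e-08). TKT, transketolase of the same pathway, rose by 1.19 ± 0.20. The peroxide and superoxide enzymes PRDX6 (-0.82 ± 0.15), SOD1 (-0.79 ± 0.14) and PRDX1 (-0.75 ± 0.13) fell, calls that median scaling ended.

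The lists of iron handling, metallothioneins, the tricarboxylic acid cycle and vesicle fusion each had calls in both directions. Of 16 iron and haem genes 3 rose and 1 fell (median -0.16, or 0.22 with median scaling), and 1 rose without the first or the second combination array, the second control array, or the first or the second experiment. The 1 fall was lost with median scaling or without the second experiment. ALAS1, the first enzyme of haem synthesis, had 11.49, 11.30 and 11.42 with both agents, against 10.00, 9.92 and 9.48 in control (1.60 ± 0.17, adjusted p = 4.3e-06). Among 9 metallothionein genes and their regulator 2 rose and 2 fell (median -0.02, or 0.08 with median scaling), and 1 rose without the first or the second combination array, the second or the third control array, or the first or the second experiment, as well as in the authors' values. There 1 fell without the first or the second combination array, the second control array, the first or the second experiment, or with median scaling. MT1G, a metal-binding protein, changed by -1.04 ± 0.15 and MTF1, the metal-sensing regulator, by 1.32 ± 0.24. Of 27 genes of the tricarboxylic acid cycle and fatty acid oxidation 1 rose (3.70%) and 4 fell (14.8%), with a median of -0.23. Over all genes 8.00% rose and 8.81% fell. With median scaling 5 genes of this list rose and 1 fell (median 0.13). Of these 1 fell without the first combination array, the second or the third control array or the second experiment, and 2 without the third experiment, while 2 rose without the second or the third combination array or the third experiment. IDH1, the cytosolic isocitrate dehydrogenase, had 10.61, 10.62 and 10.48 with both agents, against 9.67, 9.31 and 9.27 in control (1.16 ± 0.15, adjusted p = 2.6e-05). IDH2, its mitochondrial counterpart, did not pass (0.15 ± 0.14, adjusted p = 0.585). HK2, a hexokinase of growing cells, changed by -1.04 ± 0.19 and TXNIP, which restrains glucose uptake, by 2.38 ± 0.30, while the glucose transporter gene SLC2A3 did not pass (0.54 ± 0.30). Of 21 vesicle fusion genes 6 rose and 1 fell (median 0.34), or 12 and 0 with median scaling, and 0 fell without the first experiment. STX11, a syntaxin of immune cells, rose by 1.54 ± 0.16 and UNC13D, which primes granules for release, by 1.29 ± 0.15.

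Markers of the labelled cell and of other cells were read as whole lists. Of 15 granulocyte and monocyte markers 7 rose and 2 fell, the falls being CTSG (-4.45 ± 0.19) and MPO (-1.78 ± 0.20), proteins of primary granules. PRTN3 (0.01 ± 0.22, adjusted p = 0.99) and AZU1 (-0.58 ± 0.21, adjusted p = 0.0628), of the same granules, did not pass. Of 10 erythroid and megakaryocyte markers and 11 epithelial and stromal markers none passed in limma, where 1 erythroid and 2 epithelial markers had an unadjusted p under 0.05, and 2 of the epithelial and stromal markers were higher with median scaling. The summed linear signal of the erythroid list was 778 to 853 with both agents and 784 to 881 in control, and that of the epithelial list 1401 to 1537 with both agents and 1424 to 1565 in control. Of 11 lymphoid markers NKG7 rose by 2.98 ± 0.17 and CD79A by 2.36 ± 0.17, or 0.48 at another, dimmer probe of CD79A, and CD79B changed by -0.81 ± 0.15, with 2 lower without the third combination array. Their summed signal was 3191 to 3300 with both agents and 2075 to 2408 in control, and what part cells of another type had in this was not tested. CD3G, a defining T cell gene, was near background, at 6.48 ± 0.03 with both agents and 6.47 ± 0.10 in control (SD, n = 3), but CD3D, its partner in the T cell receptor, had 9.74 ± 0.09 with both agents and 10.15 ± 0.18 in control.

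The combination was then set against each agent alone at 48 h, a direct test of where the second agent made a difference. These tests share their combination arrays. Against ATRA 673 genes passed (4.40%), 417 higher (2.72%) and 256 lower (1.67%). Of these, 159 rose (1.04% of the genes tested) and 18 fell (0.118%) by 1 log2 unit or more. Median scaling called 730, 94.4% of them higher against 62.0% here. The count against ATRA fell to 362 or 371 without the first or the second combination array, 318 or 374 without the first or the second ATRA array, 170 without the first experiment and 144 without the second. Against atorvastatin 1774 passed (11.6%), 849 higher (5.55%) and 925 lower (6.04%), and by at least 1 unit 362 were higher (2.36%) and 165 lower (1.08%), with 1071 genes passing without the first experiment and 897 without the second. Median scaling called 2919 there, 94.5% of them higher against 47.9% here. Whether the change with both agents exceeded the sum of the single changes was not tested.

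Some genes lay above both single agents. IL1B averaged 11.01 ± 0.16 with both agents, 7.14 ± 0.22 with ATRA, 6.95 ± 0.26 with atorvastatin and 6.37 ± 0.03 in control (SD, n = 3 each). It was higher by 3.87 ± 0.16 than with ATRA (adjusted p = 3.2e-10) and by 4.06 ± 0.16 than with atorvastatin (adjusted p = 1.48e-11). No array of either single agent overlapped the combination arrays. C5AR1 averaged 9.43 ± 0.42 with both agents, 6.58 ± 0.22 with ATRA, 7.32 ± 0.61 with atorvastatin and 6.59 ± 0.01 in control (SD). It lay 2.84 ± 0.25 above ATRA (adjusted p = 2.89e-06) and 2.10 ± 0.25 above atorvastatin (adjusted p = 1.65e-05). The atorvastatin arrays of C5AR1 were spread more widely than those of the other groups. CD86 was higher by 1.29 ± 0.14 than with ATRA and by 1.32 ± 0.14 than with atorvastatin, TRAF1 by 1.49 ± 0.16 and 1.16 ± 0.16, and C3 by 1.70 ± 0.21 and 1.17 ± 0.21.

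Other genes followed 1 of the agents, while VIM was called different from each single agent and not from control. SMOX averaged 9.23 ± 0.56 with both agents, 9.22 ± 0.15 with ATRA, 7.04 ± 0.07 with atorvastatin and 7.00 ± 0.21 in control (SD). Its difference was 0.01 ± 0.21 from ATRA (adjusted p = 0.992) and 2.19 ± 0.21 from atorvastatin (adjusted p = 1.41e-06). CEBPE likewise differed by -0.15 ± 0.19 from ATRA (adjusted p = 0.843) and by 3.18 ± 0.19 from atorvastatin (adjusted p = 3.95e-09). HMGCS1, an enzyme of cholesterol synthesis, averaged 9.59 ± 0.02 with both agents, 8.29 ± 0.13 with ATRA, 9.89 ± 0.19 with atorvastatin and 8.75 ± 0.19 in control (SD). It differed by 1.30 ± 0.14 from ATRA (adjusted p = 2.72e-05), by -0.30 ± 0.14 from atorvastatin (adjusted p = 0.229) and by 0.83 ± 0.14 from control (adjusted p = 0.000432), the last call lost when all 36 arrays were fitted together. TFRC, the transferrin receptor gene, differed by 1.21 ± 0.22 from ATRA (adjusted p = 0.00309), a call lost without the first experiment, and by -0.21 ± 0.22 from atorvastatin (adjusted p = 0.667). VIM, the intermediate filament vimentin, averaged 12.16 ± 0.51 with both agents, 9.92 ± 0.20 with ATRA, 12.94 ± 0.30 with atorvastatin and 12.51 ± 0.16 in control (SD). It lay 2.24 ± 0.22 above ATRA (adjusted p = 8.7e-06) and -0.35 ± 0.22 from control (adjusted p = 0.344). Its difference from atorvastatin was -0.78 ± 0.22 (adjusted p = 0.0248), a call lost without the third combination array, the second atorvastatin array or any 1 experiment. MT1F, a metallothionein, was 1.18 ± 0.15 above ATRA (adjusted p = 0.000148) and 0.11 ± 0.15 from atorvastatin (adjusted p = 0.761).

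The lists were counted in the same direct tests. Over all genes 2.72% were higher and 1.67% lower than with ATRA, and 5.55% higher and 6.04% lower than with atorvastatin. The list counts in these tests are to be read against those shares. In ribosome assembly 15 of 35 genes were lower than with ATRA (median -0.61) and 23 lower than with atorvastatin (median -0.71), with 0 higher in either test. In purine and pyrimidine synthesis 7 of 23 were lower than with ATRA (11 with the replicate block) and 12 lower than with atorvastatin. Of 26 lectins and paired receptors 9 were higher than with ATRA and 13 higher than with atorvastatin, of 16 complement genes 5 and 8, and of 31 lysosome genes 6 and 13. Under other settings these list counts are not given. Over all genes the 256 lower calls against ATRA became 23 without the first experiment, 13 without the second and 41 with median scaling. The 15 ribosome falls against ATRA thus cannot all have passed without the second experiment. The 417 higher calls against ATRA became 147 and 131 without these experiments. Against atorvastatin the 925 lower calls became 160 with median scaling. MYC differed by -1.12 ± 0.20 from ATRA (adjusted p = 0.00352), a call lost without the second experiment, and by -1.63 ± 0.20 from atorvastatin (adjusted p = 3.19e-05).

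**Figure D3:**
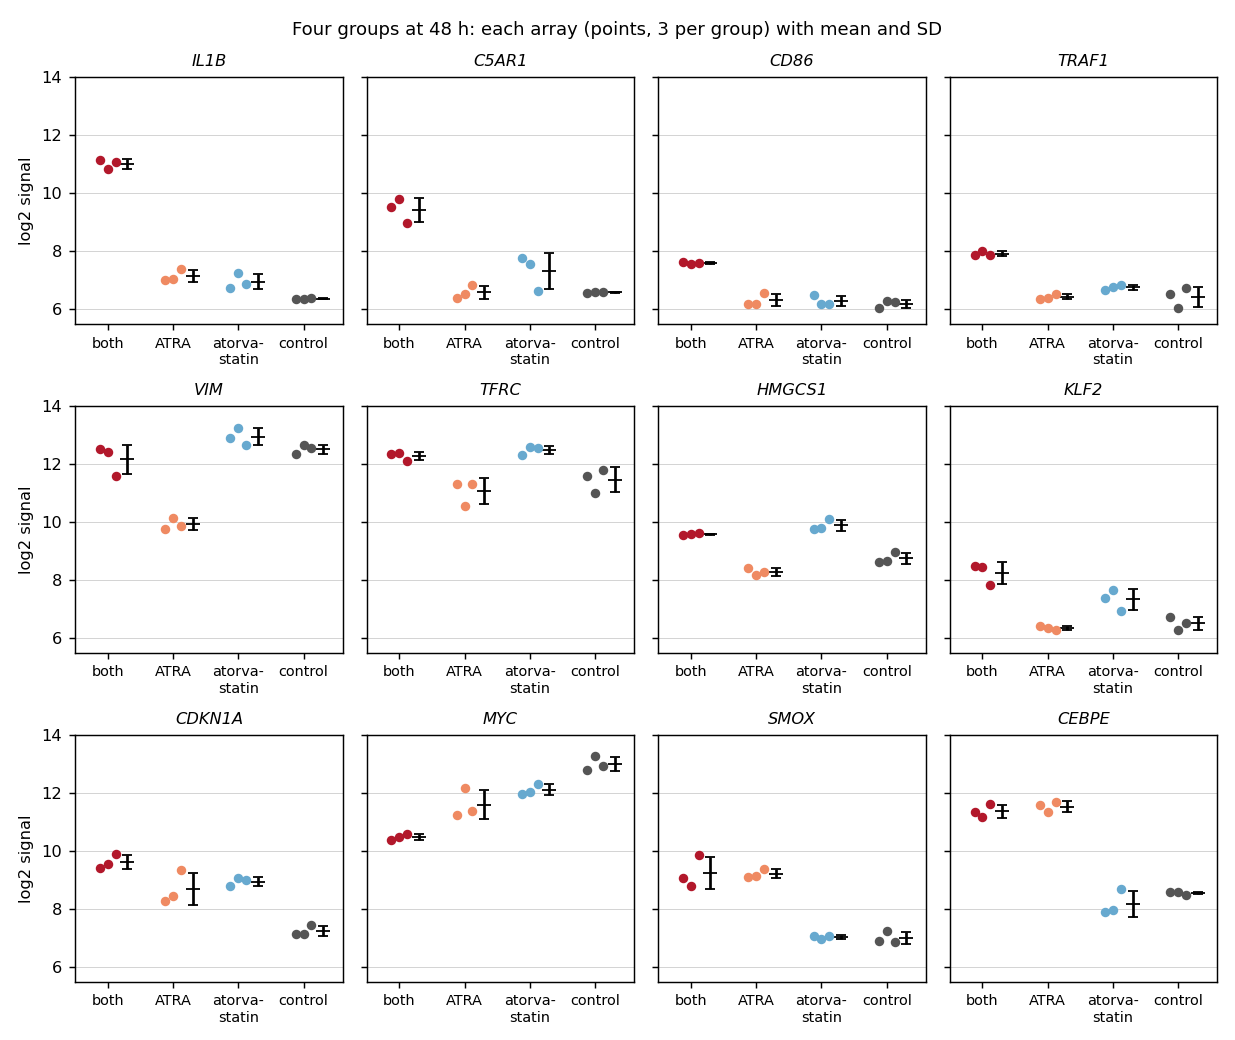
Normalized log2 signal (vertical axis) of each array at 48 h for 12 genes, with both agents, ATRA, atorvastatin and control in this order; points are the 3 arrays of a group and the bar beside them is the mean with its SD. IL1B averages 11.01 with both agents and at most 7.14 in the other groups, VIM is lowest with ATRA at 9.92, and SMOX is high in both groups that received ATRA, at 9.23 and 9.22.

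Values at 8 and 24 h place these genes in time, as means ± SD of 3 arrays with no test. SMOX stood at 9.24 ± 0.40 with both agents against 7.14 ± 0.23 in control at 8 h, and at 9.56 ± 0.26 against 6.91 ± 0.11 at 24 h. BCL2 stood at 7.52 ± 0.11 with both agents against 8.92 ± 0.11 in control at 8 h, and BCL11A at 8.33 ± 0.13 against 9.94 ± 0.03. These 3 genes were already apart from control by more than 1 unit at 8 h. So was MYC, which differed by -1.07 at 8 h and by -0.91 at 24 h. FGR differed from control by 2.26, 3.98 and 5.16 at 8, 24 and 48 h, CTSD by 0.61, 1.84 and 3.42, and G0S2 by 0.39, 2.02 and 5.81. SRM differed by -0.40, -0.82 and -1.76. The differences in these 4 genes were larger at each later time. IL1B stood at 6.75 ± 0.23 with both agents against 6.25 ± 0.31 in control at 8 h and at 6.59 ± 0.11 against 6.38 ± 0.14 at 24 h. TRAF1 and CD86 differed from control by 0.09 and 0.14 at 24 h, and LAMB3 by 0.96. In IL1B, TRAF1, CD86 and LAMB3 the 24 h means of the groups lay within 1 unit of each other.

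**Figure D4:**
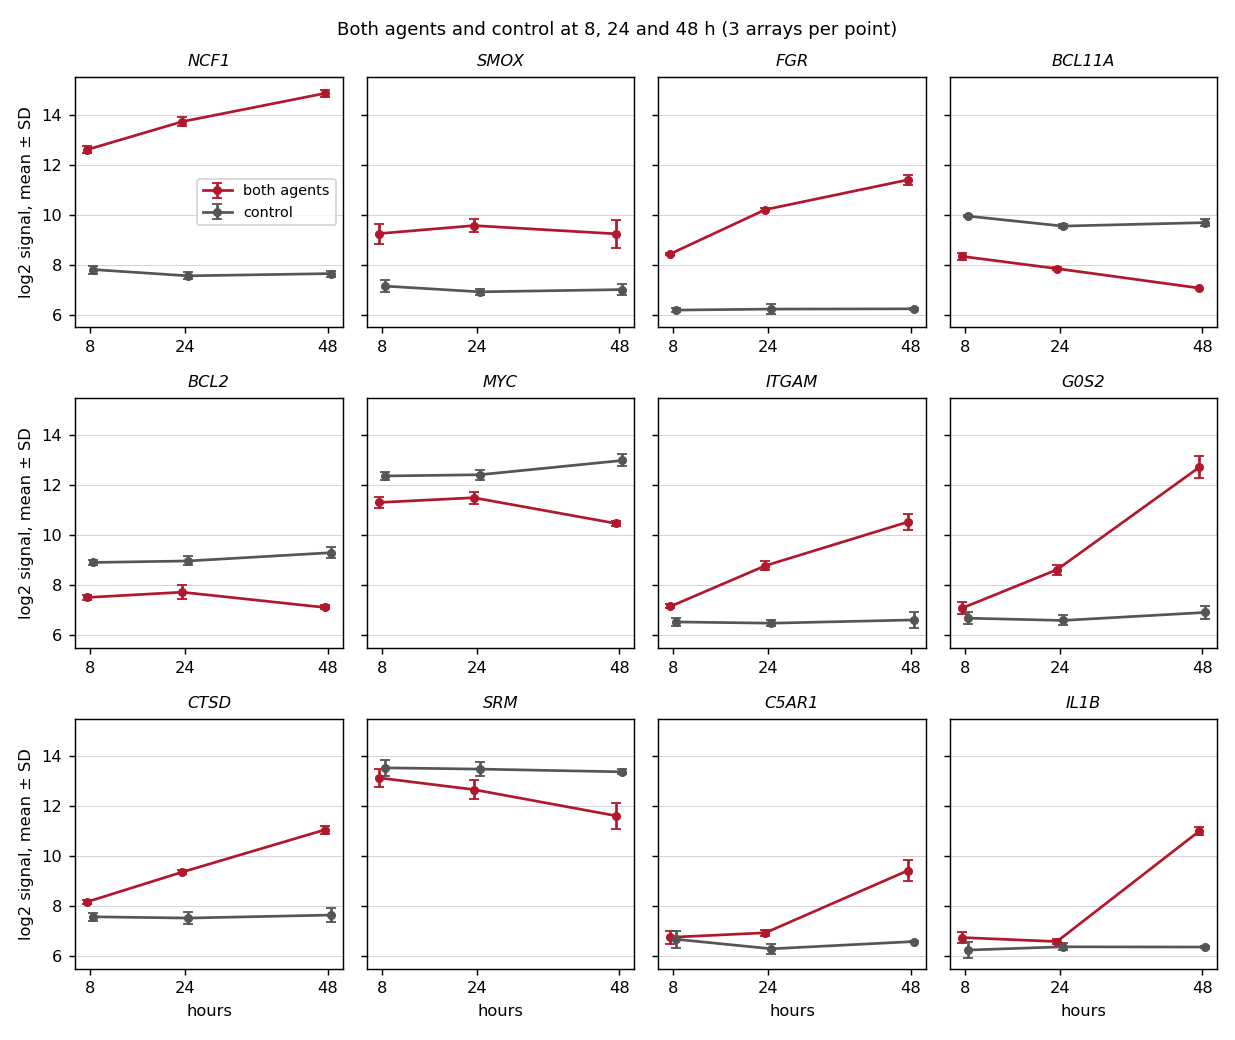
Mean normalized log2 signal with SD (vertical axis, 3 arrays per point) at 8, 24 and 48 h (horizontal axis) for 12 genes, with both agents in red and control in grey. NCF1, SMOX, FGR, BCL11A, BCL2 and MYC are apart from control at 8 h, whereas IL1B with both agents averages 6.59 at 24 h and 11.01 at 48 h.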

How the data were processed

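Total RNA of NB4 cells was hybridised to Illumina Sentrix Human-6 BeadChips. Per the labels, the authors averaged bead intensities with BeadStudio 1.3.1.5 without background correction. The deposited per-array intensity values were linear and not normalized, and the authors' deposited series table of log2 values served as an alternative. Intensities of 36 arrays of 47293 probes were corrected with normexp (offset 50) and quantile normalized in limma 3.58.1 (R 4.3.3). A probe was kept where at least 3 arrays had it over the array's own median (41648 probes), and the brightest named probe stood for a gene, of 15308; 28825 probes had no symbol. Group means of the 12 arrays at 48 h were fitted with 8 residual degrees of freedom, tested two-sided and adjusted by Benjamini-Hochberg over all genes at 0.05. The fit was checked on simulated independent normal log2 values with known changes in some genes. That check did not cover the normalization or correlation between arrays. Arrays of 8 and 24 h entered the normalization, the probe filter, the choice of the brightest probe and the values in time. They entered the fit in alternatives only. The first ATRA and the first atorvastatin array of 24 h each resemble the label of the other and are not shown, but they were normalized with the rest.

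Experiment numbers were read from runs of 12 in the title numbers, and the fit had no block. Deviations from the group means of same-numbered arrays correlated by -0.10 to 0.11 between both agents and control, by 0.067 to 0.327 between both agents and atorvastatin, and by 0.19, 0.322 and 0.406 between both agents and ATRA. By the limit of 0.1 for every pair the numbers pair only the arrays of both agents and ATRA, and blocked values stand beside results of that comparison where they change a call or move a count by over 1.5 times. Genes were named by rule: the 4 markers, the 15 largest rises and falls without overlap, up to 4 called rises and 4 called falls and the 2 brightest other members of each list, and a set of genes given whatever their values, such as HMGCS1 and TFRC. UTP4 was added after its values were seen, and 1 gene list is not reported here. The members and lists were chosen with earlier results of these data known.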

Additional observations from a re-analysis of the deposited data

How the results depend on the processing

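Of 261 named genes 185 passed the threshold against control, 122 of these under all 18 alternatives and 63 not under at least 1. Median scaling ended 39 of the calls, the authors' log2 values 11 and leaving out an array or an experiment 46, and 0 changed direction. The replicate block gave 2967 genes against control, 900 against ATRA, the comparison whose arrays the numbers pair, and 2131 against atorvastatin. Of the named genes it added 7, 20 and 13 calls in these tests and ended 0. Of 35 lists, 23 had a count against control that moved by over 1.5 times with median scaling, 6 with the authors' values, 4 with the block, 9 with all arrays but 2 of 24 h, 7 with all 36, 4 with only the 6 arrays compared, 1 with no background correction and 0 with no filter or the mean over probes. Against control the count was 1421 to 2452 with an array or experiment left out. Against ATRA it was 144 to 764, and 1162 with all arrays but 2 of 24 h. Against atorvastatin it was 897 to 1666, and 2919 with median scaling. Under median scaling the difference from atorvastatin changed sign in some named genes. In AHCY, IARS1, IDH3B and STAT5A it was called lower here, at -0.49, -0.45, -0.58 and -0.55. Median scaling brought these to 0.08, 0.12, 0.02 and 0.03. In EEF1G, MDH2, QARS1 and TXN it was not called here, at -0.05, -0.06, -0.04 and -0.01. With median scaling these stood at 0.51, 0.52, 0.54 and 0.57. The cause was not tested. Genes near background have the least signal and the most compressed changes.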
